A study of Mus musculus with 3 samples.

Results

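The guidance genes described here are the semaphorins, ephrins, Slits and netrins together with their receptors, the plexins, neuropilins, Eph receptors, Robo receptors and Unc5 receptors. Members were taken by gene symbol alone, and 69 of the 18245 genes in the deposited table matched. The set itself was chosen with earlier results of these data known. The 69 comprised 20 semaphorins, 9 plexins, 2 neuropilins, 8 ephrins, 14 Eph receptors, 3 Slits, 4 Robo receptors, 4 netrins and 4 Unc5 receptors. The remaining gene, Unc5cl, matched by its letters, is not a netrin receptor, and had at most 1 count in any library.

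These families were first known for steering growing axons, and they also act in blood vessels, epithelia and the developing heart. Class 3 semaphorins are secreted and signal through plexins, mostly with a neuropilin as the ligand-binding partner, whereas classes 4 to 7 are mostly tied to the membrane and bind plexins directly. Ephrins are held on the cell surface, those of the A group by a lipid anchor and those of the B group by a transmembrane segment, and they signal to Eph receptor tyrosine kinases on a touching cell while also signalling back into their own cell. Slits are large secreted proteins that bind Robo receptors. Netrins are laminin-related proteins that attract through Dcc and Neo1 and repel through Unc5 receptors. The epicardium is the mesothelium that covers the heart, and cells leaving it by epithelial to mesenchymal transition become fibroblasts and mural cells.

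Polyadenylated RNA was sequenced from 3 kinds of cultured cell, with 3 library columns each (n = 3 throughout) although 1 sample is listed for each kind, all labelled as ventricle epicardium of C57BL/6 mice, with no engineered allele named. CDC are cardiosphere-derived cells, which grew out of epicardial pieces of mice aged 6 weeks by way of floating spheres and are mesenchymal in shape, at a passage the labels do not give. CDC-EpiC is an epithelial clone that formed within 2 weeks when CDC received 10 µM SB-431542, which blocks the kinase of the type I TGF-beta receptor, and that was lifted out by cylinder and cleared of mesenchymal cells by timed trypsin. pEpiC are primary epicardial cells released by enzymes from dissected hearts of mice aged 6 to 8 weeks, with no sort named, and used at passage 3 in a medium other than that of CDC. Cell kind and culture conditions therefore cannot be told apart between pEpiC and the others. CDC-EpiC is a single clone, so inhibitor, clone and epithelial state cannot be told apart in it, and its libraries hold no spread between clones. The labels speak of separate RNA samples but tie no library to an animal or a culture, so p-values measure only the spread between these libraries, which may be technical.

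Library totals lay between 22008833 and 22756045 expected counts, and the guidance genes took 0.361% to 0.461% of them. The cell labels were set against lists of marker genes, summed as CPM (counts scaled to library totals after TMM normalization). The 11 epicardial or mesothelial markers summed to 724 to 765 CPM in CDC, 6009 to 6968 in CDC-EpiC and 594 to 633 in pEpiC, with none at the floor of 3 counts in any kind. The cells labelled pEpiC thus had the lowest sum of this list. Of the 11 markers, 6 were lower on average in pEpiC than in CDC, among them Upk3b, a mesothelial uroplakin, at 62.1, 66.7 and 78.4 CPM against 219.7, 235 and 234, and Tbx18, an epicardial transcription factor, at 49.1, 49.9 and 47.8 against 95.5, 93.2 and 89.7. The other 5 were higher in pEpiC, among them Wt1, another such factor, at 46.6, 54.3 and 51.8 CPM against 9.31, 9.47 and 11.4 in CDC. In CDC-EpiC most of the sum came from Upk3b, Lrrn4 and Upk1b (means 2664, 2129 and 1165 CPM). Tbx18, Krt19 and Aldh1a2 were lower on average there than in CDC (56.6, 25.5 and 2.01 against 92.8, 35.4 and 2.31 CPM). The other markers of this list were higher there. The 10 fibroblast markers summed to 22704 to 24768 CPM in pEpiC, 6501 to 8496 in CDC and 3829 to 4551 in CDC-EpiC. Of these, Dcn, Pdgfra and Tcf21 were higher on average in CDC-EpiC than in CDC (1845, 61.1 and 28.0 against 463, 29.0 and 12.3 CPM). The others were lower. Smooth muscle or pericyte markers were at 2330 to 2827 CPM in CDC, 383 to 538 in CDC-EpiC and 2151 to 2211 in pEpiC. Endothelial markers stayed at or below 109.6 CPM, cardiomyocyte markers at or below 153.9 CPM, and neuron or Schwann cell markers at or below 169.7 CPM in every library. In CDC libraries 1, 2 and 3 the cardiomyocyte sum was 28.5, 28.6 and 9.69 CPM, with Myh6 at 191, 190 and 0 counts. In pEpiC it was mostly Tnnt2 (mean 144 CPM), with Myh6, Myh7, Actc1 and Myl2 at the floor. Tubb3 (mean 144 CPM) made up most of the neuron or Schwann cell sum in CDC. Macrophage markers are given beside the genes that move with them. In RNA from whole cultures, fewer cells of a type and less RNA per cell cannot be told apart.

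Several guidance genes sit next to each other in the genome (RefSeq, GRCm38.p6). On chromosome 5, Sema3d (chr5:12383161-12588953), Sema3a (chr5:13124822-13603485), Sema3e (chr5:14025276-14256689) and Sema3c (chr5:17574816-17730268) lie in a row, with gaps of 0.54, 0.42 and 3.32 Mb. On chromosome 9, Sema3b (chr9:107597674-107609241) and Sema3f (chr9:107681499-107710475) are 72.3 kb apart. On chromosome 3, Efna3 (chr3:89313899-89322939) lies between Efna1 (chr3:89271730-89280951) and Efna4 (chr3:89333393-89338028), with gaps of 32.9 and 10.5 kb. In each of these rows, neighbours differed in opposite directions in at least 1 comparison, with the values given under each family.

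Promoters are shown for 4 secreted ligands or receptors on which the results turn: Sema3c and Sema3d, at either end of the chromosome 5 row, of which the former led in CDC and the latter in pEpiC, Nrp2, which was higher in both CDC-EpiC and pEpiC than in CDC, and Slit2, which was low in the clone. Each is the stretch from 250 bases before to 50 bases after a RefSeq transcript start, on the plus strand of GRCm38.p6, with capitals where the letters of a searched SMAD motif occur.
Sema3c, chr5:17574566-17574865: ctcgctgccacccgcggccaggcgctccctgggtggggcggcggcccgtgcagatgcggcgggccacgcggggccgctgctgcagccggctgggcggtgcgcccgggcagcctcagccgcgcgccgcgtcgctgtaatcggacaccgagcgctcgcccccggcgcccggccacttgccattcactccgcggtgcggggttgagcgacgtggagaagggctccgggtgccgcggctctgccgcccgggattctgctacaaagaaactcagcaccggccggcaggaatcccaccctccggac
Sema3d, chr5:12382916-12383215: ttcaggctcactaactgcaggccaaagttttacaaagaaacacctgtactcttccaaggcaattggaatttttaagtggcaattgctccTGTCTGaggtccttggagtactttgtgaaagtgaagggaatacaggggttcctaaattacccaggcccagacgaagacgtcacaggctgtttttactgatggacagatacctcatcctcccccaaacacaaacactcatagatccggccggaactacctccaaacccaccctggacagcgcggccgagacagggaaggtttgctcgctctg
Nrp2, chr1:62703067-62703366: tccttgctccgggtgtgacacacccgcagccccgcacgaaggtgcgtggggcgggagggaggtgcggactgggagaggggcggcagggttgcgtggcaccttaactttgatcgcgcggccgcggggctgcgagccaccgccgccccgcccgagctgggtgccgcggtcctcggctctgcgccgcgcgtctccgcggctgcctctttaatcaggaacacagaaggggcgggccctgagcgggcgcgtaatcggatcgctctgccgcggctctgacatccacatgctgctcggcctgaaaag
Slit2, chr5:47982905-47983204: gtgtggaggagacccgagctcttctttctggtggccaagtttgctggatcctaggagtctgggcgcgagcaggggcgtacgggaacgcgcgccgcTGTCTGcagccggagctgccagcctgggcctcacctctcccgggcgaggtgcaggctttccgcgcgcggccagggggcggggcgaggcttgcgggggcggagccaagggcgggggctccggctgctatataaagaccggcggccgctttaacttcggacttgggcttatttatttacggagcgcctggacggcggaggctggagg
The Sema3d promoter was the one of these 4 with the lowest GC content, 49.7%, with an observed to expected CpG ratio of 0.44. The other 3 were rich in CpG, with GC contents of 75.7% (Sema3c), 70.7% (Nrp2) and 68.0% (Slit2) and CpG ratios of 0.98, 0.99 and 0.90. RefSeq promoters were at hand for 60 of the 69 genes (76 promoters), and their median GC content was 64.2% against 52.7% over all 32851 promoters. Their median CpG ratio was 0.66 against 0.38. Letters were searched on both strands. CAGACA or TGTCTG, part of the SMAD site, occurred in 27.6% of the guidance promoters and 21.0% of all, and GTCTAGAC, the SMAD palindrome, in 0 of the 76 and 0.213% of all. GGAATG or CATTCC (TEAD) occurred in 11.8% against 14.7%, GTGGGNG or CNCCCAC (WT1) in 52.6% against 31.6%, and AGGTGTGA or TCACACCT (T-box) in 1.32% against 1.28%. The WT1 letters are rich in G and C, as the guidance promoters were, and a match of letters is not a site.

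A gene was called present in a kind where each of its 3 libraries had at least 10 counts. By this measure 55 of the 69 genes were present in CDC, 50 in CDC-EpiC and 56 in pEpiC, and 49 were present in every kind. The 8 ephrins and both neuropilins were present throughout. Epha5, Epha8, Epha10, Ntn5, Robo4 and Unc5cl were at the floor, at most 3 counts in each library, in every kind. Among the 59 genes present somewhere, mean CPM was highest in pEpiC for 25, in CDC-EpiC for 22 and in CDC for 12. Neither these counts of present genes nor this tally was made over all genes, so no background share stands beside them. CPM is not scaled to transcript length, and the comparisons with pEpiC below had a trend with length.

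**Figure D1:**
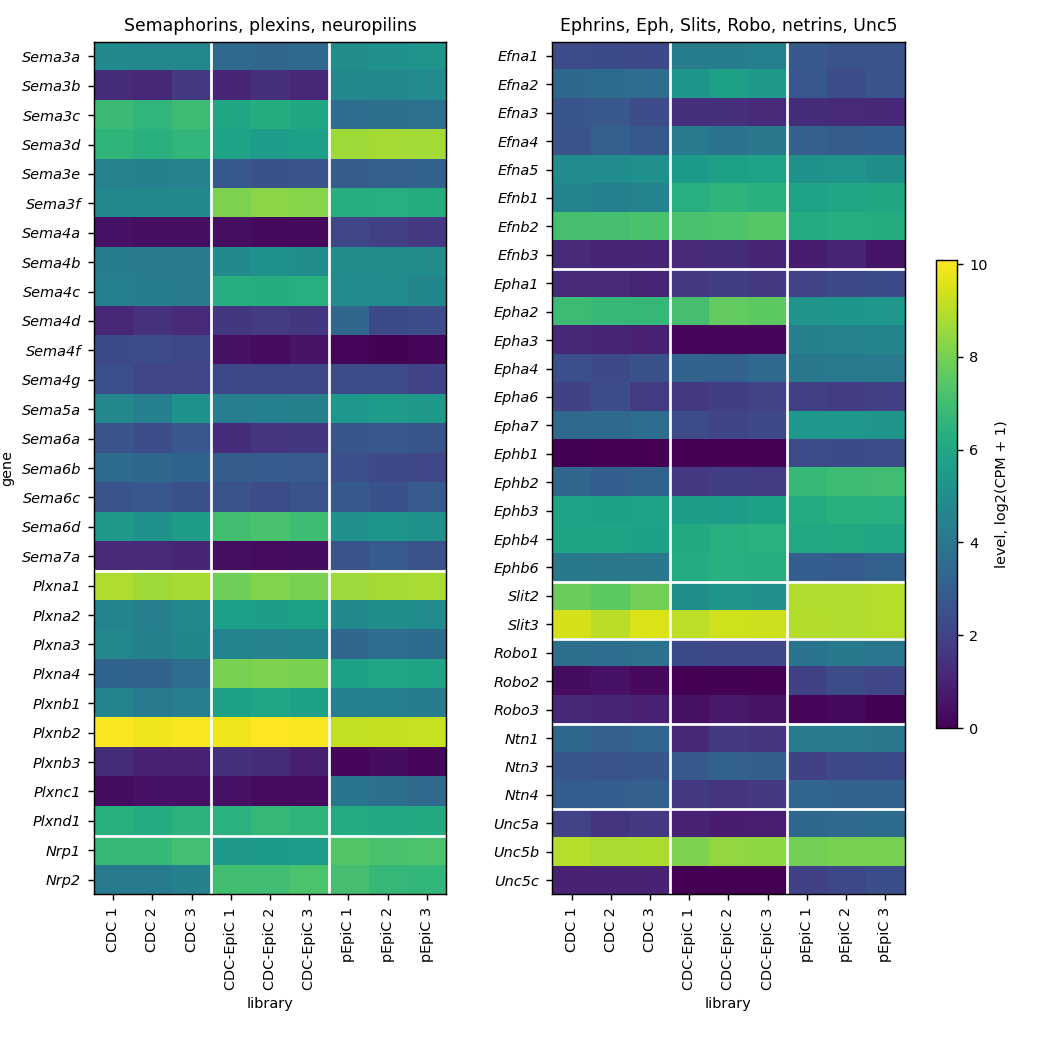
Level of each of the 59 guidance genes present in at least 1 kind (rows, grouped by family) in each of the 9 libraries (columns). Colour is log2(CPM + 1), from dark (0) to yellow (near 10), and white lines part families and kinds. Plxnb2 and Slit3 are bright throughout, while Sema3d and Ephb2 are brightest in pEpiC and Sema3f and Plxna4 in CDC-EpiC.

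Levels of different genes were compared as FPKM, which is scaled to transcript length. The 20 semaphorins together summed to 74.5 ± 4.31 FPKM (SD) in CDC, 170.0 ± 5.36 in CDC-EpiC and 138.3 ± 3.05 in pEpiC, and a different gene led in each kind. In CDC, Sema3c held 28.8 ± 0.867% of that sum and Sema3d 18.2 ± 0.228%. In CDC-EpiC, Sema3f held 52.3 ± 1.52%, and in pEpiC, Sema3d held 46.3 ± 0.621%. Ephrins summed to 55.5 ± 1.82 FPKM in CDC, 113.1 ± 4.55 in CDC-EpiC and 53.2 ± 0.420 in pEpiC. Efnb2 made up 53.7 ± 1.15% of the ephrin sum in CDC, and Efnb1 and Efnb2 together led in the other kinds. For Eph receptors, Epha2 held 45.8 ± 1.45% in CDC and 46.3 ± 3.97% in CDC-EpiC but 13.9 ± 0.336% in pEpiC, where Ephb3 held 25.9 ± 0.727%. These sums, and those of other families below, are descriptions and were not tested. Between kinds they depend on the scale. From CDC to pEpiC the median log2 change over all genes was 0.09 on log2(FPKM + 1) and 0.41 on log2(TPM + 1).

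**Figure D2:**
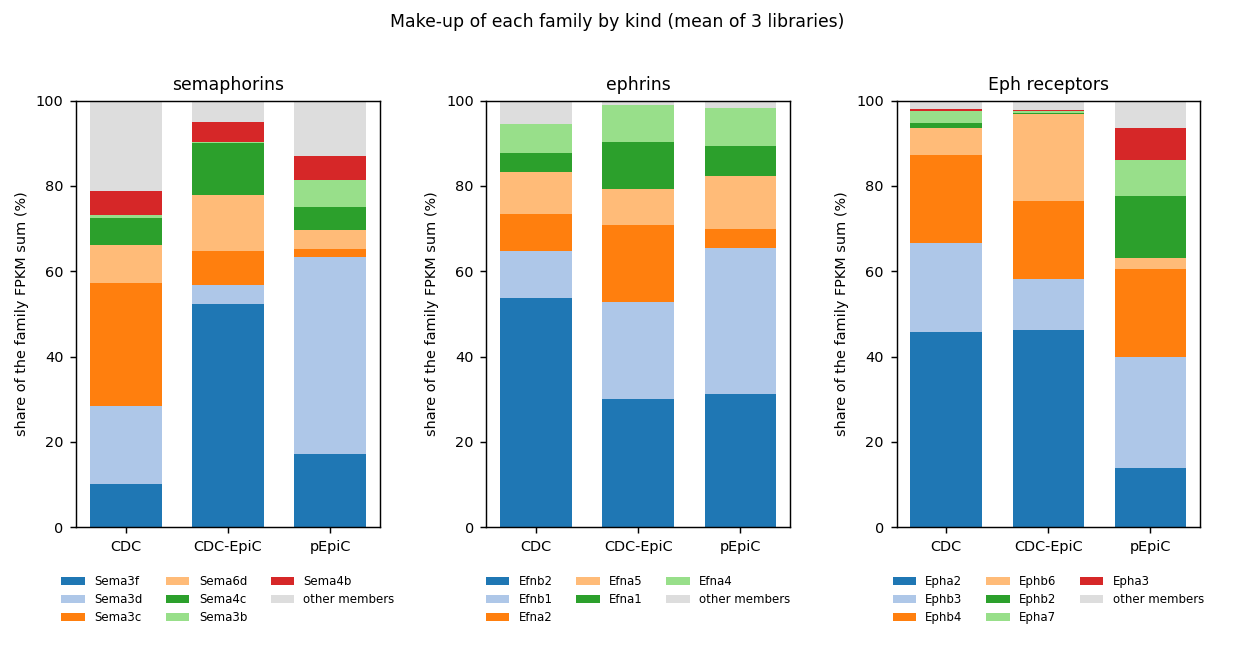
Make-up of the semaphorins, ephrins and Eph receptors in each kind, as stacked shares (%) of the family's summed FPKM, averaged over 3 libraries. Genes that reach 5% in some kind are drawn apart and the rest are grey. Sema3c, Sema3f and Sema3d take the largest share in CDC, CDC-EpiC and pEpiC in turn, and Epha2 takes a smaller share of the Eph receptors in pEpiC than in the other kinds.

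The cells labelled pEpiC were compared with CDC, which were grown separately from epicardial pieces and not out of pEpiC. pEpiC had more RNA for Sema3d, Sema3b, Nrp2, Plxna4 and most Eph receptors, and less for Sema3c, Epha2, Efnb2 and Unc5b. Of the 59 genes tested in edgeR, 31 were higher in pEpiC and 18 lower at an adjusted p under 0.05, and 10 did not pass. That is 83.1% called, against 78.3% of all 13526 genes tested, with 52.5% higher against 39.8% and 30.5% lower against 38.5%. Libraries of the pair did not overlap for 49 genes (83.1% against 81.4%). Changes of at least 2-fold were called for 31 genes, 52.5% against 30.1% of all. The median log2 change was 0.24 against 0.02 over all genes, unchanged with the 2 genes at a floor put at their bound. The split changed once transcript length was taken into account. Over 10683 genes above 5 CPM, the log2 change increased by 0.45 per doubling of length in this comparison, and the guidance transcripts had a median length of 5017 bases against 2899 over all. With an offset that removes this trend, 26 guidance genes were higher (44.1% against 37.2% of all) and 27 lower (45.8% against 37.6%), with a median of -0.10. In limma on log2(TPM + 1), which moved the median over all genes to 0.41, 40 guidance genes were higher and 14 lower, and 74.5% of all calls were higher against 50.8% in edgeR.

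**Figure D3:**
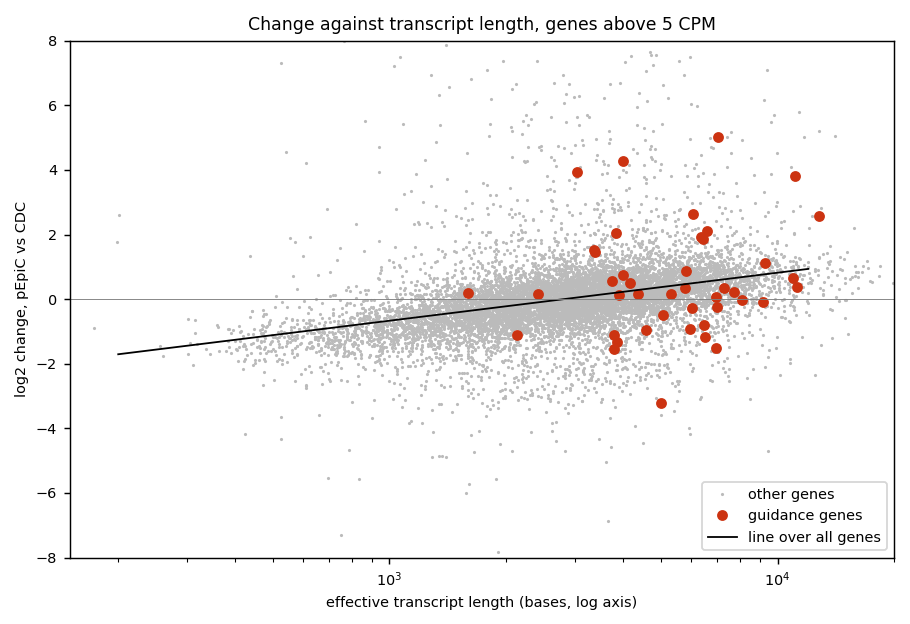
Log2 change from CDC to pEpiC against effective transcript length (bases, log axis) for genes above 5 CPM, with guidance genes in red, other genes in grey and a straight line fitted over all. The line climbs by 0.45 per doubling of length and most red points lie to the right of the middle of the grey cloud. There are 41 genes outside the axes, none of them a guidance gene.

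The clone was compared with CDC, the cells it came from. CDC-EpiC had more RNA for Plxna4, Sema3f, Nrp2, Ephb6 and most ephrins, and less for Slit2, Robo1, Ntn1, Ntn4, Sema3a, Sema3e and Nrp1. Of 55 genes tested, 21 were higher in the clone, 23 lower and 11 did not pass, 80.0% called against 68.8% of 12976 genes, with 38.2% higher against 34.2% and 41.8% lower against 34.6%. The libraries did not overlap for 42 genes (76.4% against 72.1%). At least 2-fold changes were called for 30, which is 54.5% against 21.7%. The median log2 change was -0.11 against 0.00 over all, the same with bounds for the 2 genes at a floor. The slope on length was 0.02 per doubling here, and the length offset left the counts at 21 (35.8% of all genes were higher) and 23 (34.9% were lower).

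Set against pEpiC, the clone had more ephrins, plexins and Epha2, and less Sema3d, Slit2, Robo1, Unc5a and several Eph receptors. Of 57 genes tested, 25 were higher in CDC-EpiC, 26 lower and 6 did not pass, 89.5% called against 81.9% of 13547 genes, with 43.9% higher against 40.3% and 45.6% lower against 41.5%. For 51 genes the libraries did not overlap (89.5% against 83.8%). Called changes reached 2-fold for 36 (63.2% against 35.9%), with a median of 0.01 against -0.02 over all and no move with 4 genes at their bound. The length slope was -0.44 per doubling, and with the offset the counts were 28 (49.1% against 42.9% of all) and 24 (42.1% against 37.5%). On the TPM scale, where the median over all genes was -0.33, 18 were higher and 29 lower, and 32.9% of all calls were higher against 49.3% in edgeR. The comparisons share libraries and are not independent of each other.

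**Figure D4:**
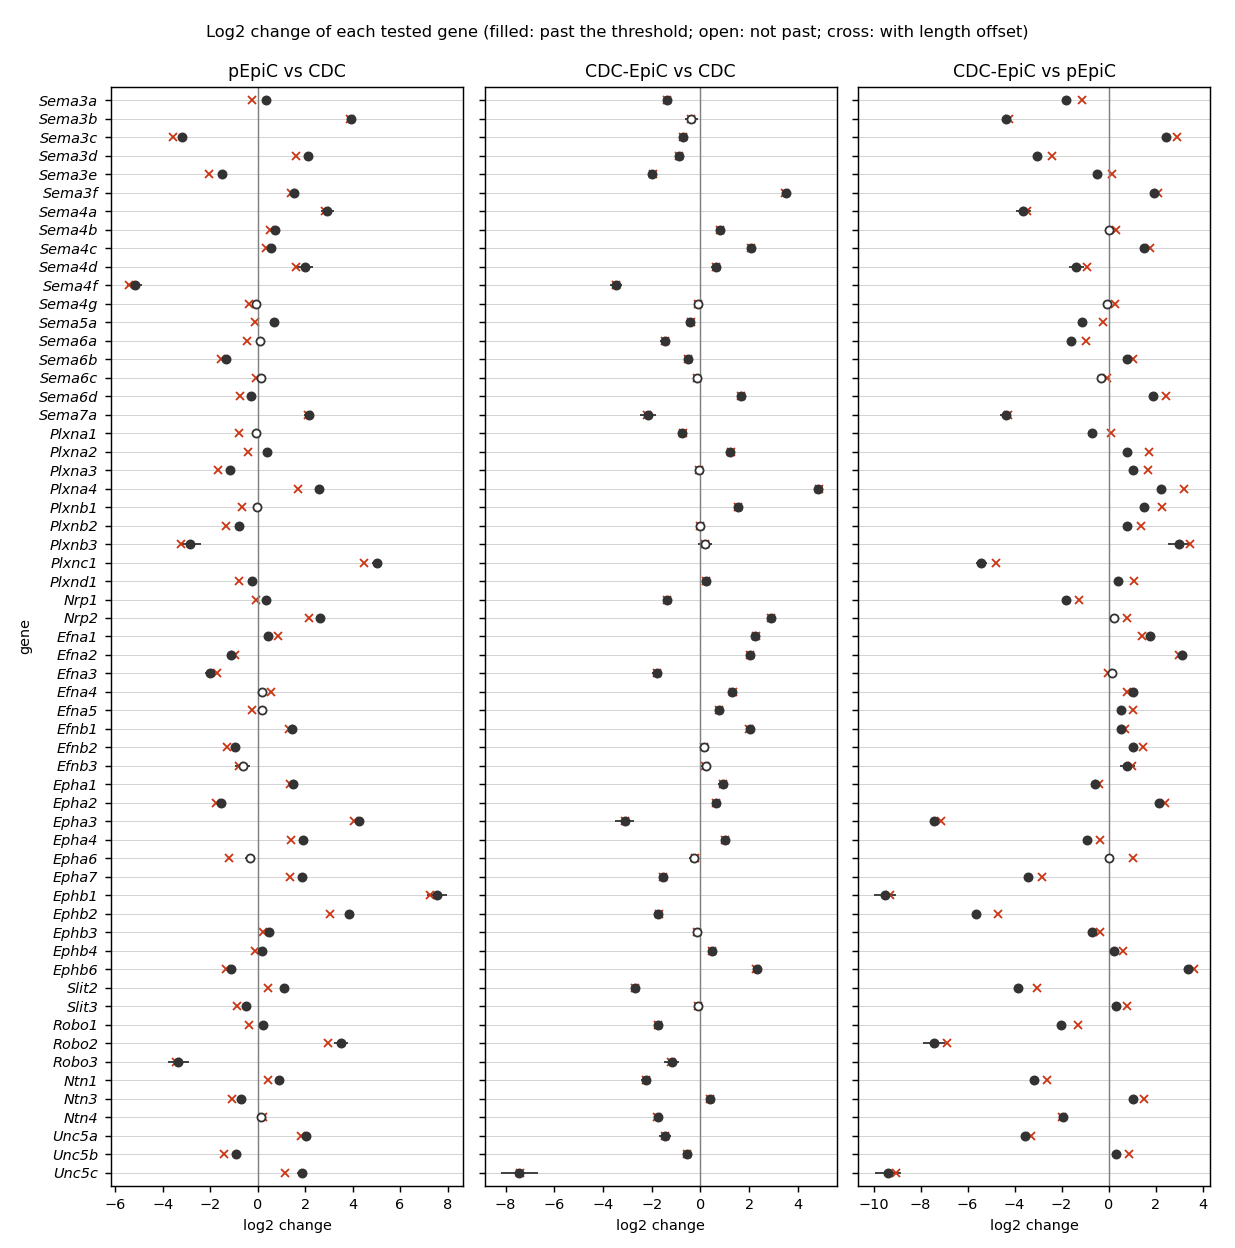
Log2 change of each tested guidance gene in the 3 comparisons, with bars for the standard error. Filled points passed an adjusted p of 0.05, open points did not, and red crosses are the values with the length offset. Points right of 0 are higher in the kind named first. Fitted values of Ephb1, Epha3, Unc5c, Robo2 and Sema4f depend on a group at the floor in some panels and are not bounds. Crosses lie left of most points in the left panel, on them in the middle and right of most on the right.

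Class 3 semaphorins, the secreted ligands, differed between the kinds. Sema3f (gene ID 20350), which binds mainly Nrp2, was at 25.3, 26.0 and 27.6 CPM in the CDC libraries, 271, 318 and 307 in CDC-EpiC and 76.5, 81.4 and 74.9 in pEpiC. The 3 ranges do not overlap. The clone was 11.3-fold above CDC (log2 change 3.50 ± 0.09 (SE), adjusted p = 9.58e-14) and 3.81-fold above pEpiC (1.93 ± 0.07), and pEpiC was above CDC (1.53 ± 0.06). Its neighbour Sema3b was at 1.43, 1.22 and 2.32 CPM in CDC, 1.11, 1.59 and 1.16 in CDC-EpiC and 25.5, 25.0 and 27.9 in pEpiC. Sema3b was thus 15.3-fold higher in pEpiC than in CDC (log2 change 3.94 ± 0.17, adjusted p = 1.69e-08), while clone and CDC overlapped and did not pass (-0.38 ± 0.27, adjusted p = 0.232).

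In the chromosome 5 row, Sema3d (gene ID 108151), known for its part in patterning the pulmonary veins, was at 95.0, 84.1 and 98.5 CPM in CDC, 56.3, 45.6 and 50.5 in CDC-EpiC and 403, 419 and 415 in pEpiC. Every pEpiC library was over 4 times above every CDC library, and every clone library lay below CDC. The log2 change was 2.12 ± 0.07 from CDC to pEpiC and -0.87 ± 0.09 from CDC to the clone. Sema3c, a ligand needed for septation of the cardiac outflow tract, ran the other way at the pEpiC end, with 115, 98.6 and 119.6 CPM in CDC, 62.9, 74.3 and 64.8 in CDC-EpiC and 11.5, 12.3 and 13.0 in pEpiC. pEpiC was 9.27-fold below CDC (log2 change -3.21 ± 0.09, adjusted p = 9.31e-10) and the clone 1.66-fold below (-0.73 ± 0.09). Sema3e, which binds Plxnd1 without a neuropilin, was highest in CDC at 21.3, 20.1 and 21.0 CPM, against 5.85, 4.74 and 5.38 in the clone and 6.85, 7.58 and 8.03 in pEpiC. Clone and pEpiC differed for it by a log2 change of -0.50 ± 0.13, which turned to 0.14 with the length offset. Sema3a, an Nrp1 ligand, was lower in the clone, at 10.2, 9.07 and 9.96 CPM, than in CDC at 27.7, 24.3 and 24.2 (log2 change -1.39 ± 0.09). Its difference between pEpiC and CDC (0.36 ± 0.09) turned to -0.22 with the length offset. The Sema3c and Sema3d promoters printed above thus belong to genes that differed in opposite directions between pEpiC and CDC, whereas both were lower in the clone than in CDC.

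Among the membrane-bound semaphorins, Sema4c, a Plxnb2 ligand, was at 77.2, 75.0 and 80.0 CPM in the clone, against 19.2, 17.6 and 17.2 in CDC and 28.1, 29.2 and 24.0 in pEpiC. Sema6d followed the same order at the top, with 129, 147 and 123 CPM in the clone, 43.1, 35.4 and 48.4 in CDC and 33.6, 38.4 and 35.3 in pEpiC. In both cases every clone library was above every other library, with log2 changes from CDC of 2.09 ± 0.08 and 1.65 ± 0.11. Sema4b was higher than in CDC by 0.79 ± 0.09 in the clone and 0.74 ± 0.06 in pEpiC. Sema4f went from 3.78, 4.13 and 3.50 CPM in CDC to 0.355, 0.228 and 0.445 in the clone and to at most 3 counts in every pEpiC library. That places pEpiC at least 29.2-fold below CDC, with the floor taken as 3 counts a library. Sema5a, Sema6a and Sema6b were lower in the clone than in CDC, with log2 changes of -0.43 ± 0.15, -1.46 ± 0.19 and -0.50 ± 0.12, and Sema4g and Sema6c did not pass in any of the 3 comparisons. The Sema5a libraries of clone and CDC overlapped, and its call was lost in 5 of the alternatives, among them leaving out CDC library 3 (-0.18, adjusted p = 0.136) or CDC-EpiC library 1 (-0.41, adjusted p = 0.0634).

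The semaphorins as a family counted 10 higher and 5 lower of 18 tested in pEpiC against CDC, 55.6% and 27.8% against 39.8% and 38.5% of all genes, a split that became 8 and 7 with the length offset. With the offset that is 44.4% and 38.9%, against 37.2% and 37.6% of all genes. They counted 5 higher and 9 lower of 17 (29.4% and 52.9%) in the clone against CDC, where 34.2% and 34.6% of all genes were. The counts were the same against pEpiC, with 40.3% and 41.5% of all genes, and the offset gave 6 and 8 (35.3% and 47.1% against 42.9% and 37.5% of all genes). Sema3g and Sema5b were not tested in any comparison, for low counts.

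A few genes were raised in pEpiC along with macrophage markers. Plxnc1, the receptor of Sema7a, was at 0.277, 0.408 and 0.410 CPM in CDC, 0.399, 0.228 and 0.222 in the clone and 14.3, 12.2 and 10.3 in pEpiC, a log2 change of 5.01 ± 0.22 (adjusted p = 1.91e-08). Sema7a itself was at 1.29, 1.31 and 1.05 CPM in CDC, 0.310, 0.228 and 0.267 in the clone and 5.21, 6.67 and 4.93 in pEpiC. Sema4a was at 3.40, 2.77 and 2.18 CPM in pEpiC and at most 0.415 in any other library. Sema4d, known from immune cells, was at 9.05, 3.77 and 4.23 CPM in pEpiC. It was at 1.15, 1.68 and 1.37 CPM in CDC and 2.13, 2.41 and 2.09 in the clone. The 10 macrophage markers summed to 891, 338 and 311 CPM in pEpiC libraries 1, 2 and 3, to 57.9 to 60.9 in CDC and to 22.6 to 25.1 in the clone. Ptprc, the leukocyte antigen CD45, was at 15.3, 5.55 and 6.37 CPM in pEpiC and at most 1 count in any other library, and 5 of the 10 markers were at the floor in CDC and 7 in the clone. Sema4d, Plxnc1, Sema4a and Nrp2 were highest in the same pEpiC library as these markers, library 1, whereas Sema7a was highest in library 2. Other guidance genes, such as Nrp1 and Ntn4, were also highest in pEpiC library 1. In proportion, Sema4d, Plxnc1, Sema4a and Nrp2 all fell less from library 1 to the others than the marker sum did. Sema4d came nearest to the marker sum. Without pEpiC library 1, the log2 change from CDC to pEpiC was 1.47 for Sema4d, 4.88 for Plxnc1, 2.77 for Sema4a and 2.48 for Nrp2. Each was still past the threshold. The part of macrophages in these differences was not tested.

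The neuropilins differed in opposite directions between clone and CDC. Nrp2 (gene ID 18187), the receptor part for Sema3f and for lymphatic growth factors, was at 17.0, 16.6 and 20.7 CPM in CDC, 131, 126 and 149 in CDC-EpiC and 138, 105 and 101 in pEpiC. It was 7.44-fold higher in the clone than in CDC (log2 change 2.89 ± 0.10, adjusted p = 1.59e-12) and 6.19-fold higher in pEpiC (2.63 ± 0.13). Clone and pEpiC overlapped (log2 change 0.22 ± 0.11, adjusted p = 0.0903), and without pEpiC library 1 this difference was 0.37 and passed. Nrp1, the Sema3a receptor part that also binds VEGF, was at 108, 107 and 135 CPM in CDC, 43.1, 43.7 and 47.3 in the clone and 165, 145 and 149.9 in pEpiC. The clone libraries lay below all others, with a log2 change of -1.39 ± 0.09 from CDC, whereas the difference of pEpiC from CDC (0.36 ± 0.09) turned to -0.09 with the length offset. In FPKM, Nrp1 was above Nrp2 in CDC (19.6 ± 2.56 against 2.80 ± 0.344) and below it in the clone (8.02 ± 0.312 against 22.8 ± 2.28).

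Plexins, the signalling receptors, were led in every kind by Plxnb2, at 149.8 ± 6.99 FPKM in CDC, 156 ± 11.6 in the clone and 92.9 ± 1.95 in pEpiC. Clone and CDC overlapped for it (log2 change 0.00 ± 0.09, adjusted p = 0.996), and pEpiC lay below CDC (-0.81 ± 0.07). Plxna4 (gene ID 243743), a partner of neuropilins in class 3 semaphorin signalling, was at 8.62, 8.21 and 11.5 CPM in CDC, 257, 284 and 269 in CDC-EpiC and 53.3, 60.8 and 58.0 in pEpiC. The ranges are far apart, and the clone was 28.4-fold above CDC (log2 change 4.83 ± 0.11, adjusted p = 4.83e-14) and 4.66-fold above pEpiC. pEpiC was 5.93-fold above CDC, and its log2 change of 2.57 ± 0.11 was 1.71 with the length offset. Plxna2 and Plxnb1 were higher in the clone than in CDC, by 1.21 ± 0.09 and 1.53 ± 0.09. Plxna1, second among plexins by FPKM, was lower in the clone, at 231, 288 and 267 CPM against 469, 401 and 434 in CDC. An antisense gene shares 10.7% of the exonic bases of Plxna1. Plxna3 was lower in pEpiC than in CDC (-1.17 ± 0.11), and Plxnd1, the receptor of Sema3e, differed from CDC by -0.26 ± 0.07 in pEpiC, a difference that turned to 0.24 on the TPM scale, and by 0.21 ± 0.09 in the clone, a call lost in 9 of the alternatives. Against pEpiC, 7 of 9 plexins were higher in the clone (77.8% against 40.3% of all genes) and 2 lower (22.2% against 41.5%), of which Plxna1 (-0.69 ± 0.08) turned to 0.12 with the length offset and the other, Plxnc1, kept its direction.

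Most ephrins were higher in the clone. Of 8 tested, 5 were above CDC (62.5% against 34.2% of all genes), 1 below (12.5% against 34.6%) and 2 did not pass, and 7 were above pEpiC with 0 below, the same counts with the length offset. Against a background of 40.3% of all genes called higher than in pEpiC, or 42.9% with the offset, 87.5% of ephrins were. Efna2 was at 38.0, 51.5 and 41.7 CPM in CDC-EpiC, 9.54, 10.8 and 11.3 in CDC and 5.60, 4.29 and 5.15 in pEpiC, a log2 change of 2.04 ± 0.11 from CDC and 3.11 ± 0.14 from pEpiC. Efnb1, a transmembrane ephrin, was at 81.0, 94.0 and 84.7 CPM in the clone, 54.8, 59.6 and 65.0 in pEpiC and 22.6, 19.7 and 21.5 in CDC, and 3 ranges without overlap put both CDC-EpiC and pEpiC above CDC (log2 changes 2.01 ± 0.09 and 1.45 ± 0.08). Efnb2, an arterial marker and Ephb4 ligand, did not pass between clone and CDC (log2 change 0.14 ± 0.08, adjusted p = 0.138) and was lower in pEpiC, at 72.7, 76.3 and 74.4 CPM against 138, 138 and 146 in CDC. The chromosome 3 row split. Efna1 was at 4.01, 3.81 and 3.69 CPM in CDC and 17.8, 17.8 and 19.7 in the clone. Efna4 was at 4.98, 7.62 and 5.83 and 16.8, 13.3 and 15.2 CPM, so both flanking genes were higher in the clone. Efna3 between them was lower, at 5.53, 5.98 and 4.01 CPM in CDC and 1.64, 1.59 and 1.29 in the clone. The log2 changes of Efna1, Efna4 and Efna3 were 2.25 ± 0.11, 1.29 ± 0.14 and -1.78 ± 0.20, each with no overlap. Exons of Efna3 and Efna4 share 14.1% and 10.5% of their bases with antisense genes, and since no source used here says whether counting used strand, reads of the pairs may be mixed.

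Eph receptors split between clone and pEpiC. In pEpiC, 8 of 11 tested were above CDC and 2 below (72.7% and 18.2% against 39.8% and 38.5% of all genes), and with the length offset 7 and 3 (63.6% and 27.3% against 37.2% and 37.6%). Of the same number tested against pEpiC, 3 were higher in the clone and 7 lower (27.3% and 63.6% against 40.3% and 41.5%), or 4 and 7 with the offset (36.4% and 63.6% against 42.9% and 37.5%). Ephb2 (gene ID 13844), a receptor of B ephrins at tissue borders, was at 109, 122 and 126 CPM in pEpiC, 9.17, 7.12 and 8.19 in CDC and 2.17, 2.69 and 2.45 in the clone. The ranges are wide apart, pEpiC being 14.2-fold above CDC (log2 change 3.83 ± 0.10, adjusted p = 6e-10) and the clone 3.37-fold below it (-1.75 ± 0.16). Epha3, known from mesenchyme of the developing heart, was at 20.2, 21.1 and 22.9 CPM in pEpiC and 1.24, 1.04 and 0.910 in CDC, with at most 3 counts in each clone library. With the floor taken as 3 counts a library, the clone was at least 7.93-fold below CDC and at least 159-fold below pEpiC. Epha7 had the same order, with 40.1, 40.8 and 37.5 CPM in pEpiC, 10.3, 10.2 and 11.4 in CDC and 4.03, 3.28 and 3.69 in the clone. Ephb1 was at 3.96, 3.77 and 4.23 CPM in pEpiC and at the floor in the other kinds, so at least 29.1-fold higher in pEpiC than in CDC. Epha4 and Epha1 were above CDC in both CDC-EpiC and pEpiC, Epha4 by 1.92 ± 0.11 in pEpiC and 1.02 ± 0.14 in the clone.

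Ephb6 and Epha2 ran opposite to these. Ephb6, an Eph receptor whose kinase is inactive, was at 73.3, 78.2 and 76.5 CPM in CDC-EpiC, 15.7, 14.8 and 15.4 in CDC and 7.15, 6.72 and 7.73 in pEpiC. The clone was 4.94-fold above CDC (log2 change 2.30 ± 0.08, adjusted p = 1.09e-12) and 10.4-fold above pEpiC. Epha2, a receptor of epithelial cells for Efna1, was at 138, 201 and 184 CPM in the clone, 120.4, 108 and 103 in CDC and 37.6, 38.4 and 40.3 in pEpiC. The clone libraries all lay above CDC, by a log2 change of 0.65 ± 0.11 (adjusted p = 0.000131), and pEpiC lay below both. Ephb3 was above CDC in pEpiC (0.49 ± 0.06) and did not pass in the clone (-0.16 ± 0.08, adjusted p = 0.0830). Ephb4 was above CDC in the clone (0.46 ± 0.08), while its difference in pEpiC (0.17 ± 0.06) turned to -0.12 with the length offset.

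**Figure D5:**
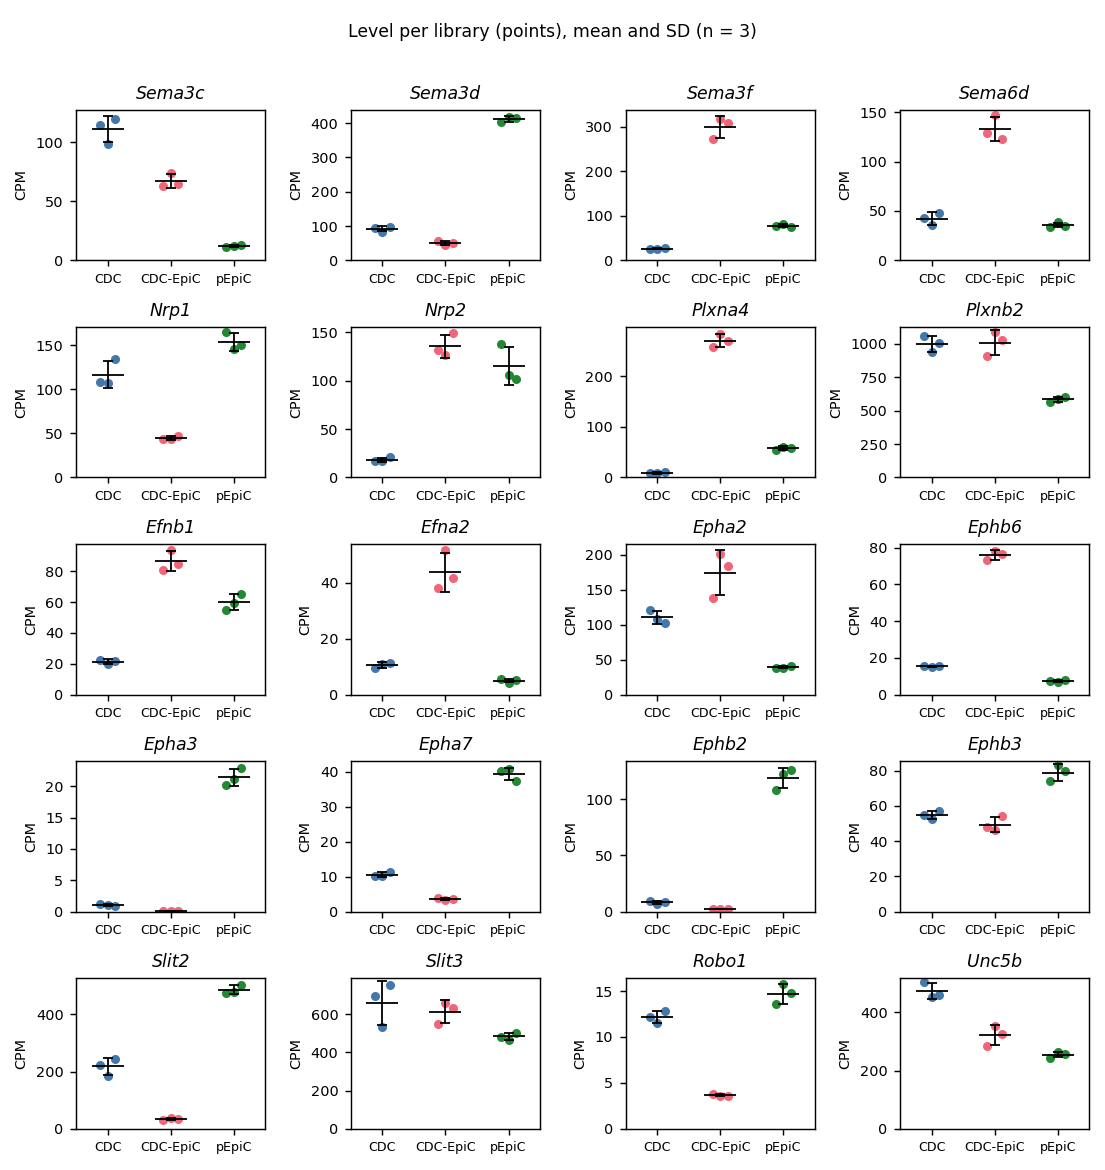
CPM of 20 guidance genes in each library (points; blue CDC, red CDC-EpiC, green pEpiC), with the mean and SD of 3 libraries in black and each axis starting at 0. Sema3f, Plxna4, Ephb6 and Efna2 are highest in the clone, Sema3d, Slit2, Ephb2, Epha3 and Epha7 in pEpiC and Sema3c and Unc5b in CDC. Clone and CDC points overlap for Plxnb2, Slit3 and Ephb3.

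The Slits summed to 149.2 ± 23.4 FPKM in CDC, 125.4 ± 9.86 in the clone and 151.9 ± 4.05 in pEpiC, with Slit3 in the lead. Slit3 was at 126 ± 20.6 FPKM in CDC, 122 ± 9.70 in the clone and 98.3 ± 2.86 in pEpiC, and clone and CDC did not pass (log2 change -0.11 ± 0.12, adjusted p = 0.399). Its difference of pEpiC from CDC (-0.48 ± 0.11) turned to 0.03 on the TPM scale. Slit2 (gene ID 20563; promoter above) was at 224, 185 and 244 CPM in CDC, 31.3, 36.1 and 33.4 in CDC-EpiC and 477, 477 and 504 in pEpiC. All clone libraries were far below the others, 6.52-fold below CDC (log2 change -2.70 ± 0.10, adjusted p = 4.96e-12) and 14.6-fold below pEpiC. pEpiC was above CDC by 1.12 ± 0.09, or 0.42 with the length offset. Slit1 had at most 12 counts in any library.

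Robo receptors, which read the Slits, were low next to their ligands. Robo1 led them at 1.52 ± 0.0777 FPKM in CDC, 0.473 ± 0.0231 in the clone and 1.96 ± 0.146 in pEpiC. In CPM, Robo1 was at 3.81, 3.60 and 3.56 in the clone libraries against 12.2, 11.5 and 12.9 in CDC, a log2 change of -1.74 ± 0.12 (adjusted p = 5.44e-09). Its difference between pEpiC and CDC (0.24 ± 0.09) turned to -0.37 with the length offset. Robo2 was at 2.93, 4.03 and 3.45 CPM in pEpiC and at the floor in the clone, at least 25.8-fold lower there. Robo3 was at 1.2, 1.04 and 0.910 CPM in CDC and lower in both other kinds. The sum of Robo FPKM was 1.88 ± 0.0231 in CDC, 0.630 ± 0.0265 in the clone and 2.50 ± 0.230 in pEpiC.

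Netrins were expressed at a low level throughout, with sums of 5.38 ± 0.205 FPKM in CDC, 2.68 ± 0.177 in the clone and 7.07 ± 0.303 in pEpiC. Ntn1, the classical netrin, was at 9.26, 7.53 and 8.69 CPM in CDC, 1.24, 2.28 and 1.91 in the clone and 16.2, 16.9 and 15.1 in pEpiC, with no overlap and a log2 change of -2.24 ± 0.19 from CDC to the clone. Ntn4, a basement membrane netrin that binds laminin, was at 2.26, 1.91 and 2.31 CPM in the clone, 7.14, 7.03 and 7.60 in CDC and 8.66, 8.28 and 7.90 in pEpiC. It was lower in the clone than in CDC (-1.75 ± 0.15), and pEpiC against CDC did not pass (0.15 ± 0.10, adjusted p = 0.185). Ntn3, at 6.12, 7.88 and 7.34 CPM in the clone, 5.53, 5.08 and 5.55 in CDC and 2.84, 3.64 and 3.75 in pEpiC, was higher in the clone than in CDC (0.39 ± 0.14) and than in pEpiC (1.04 ± 0.16).

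Among netrin receptors, Unc5b, also a receptor in endothelial cells, was by far the most abundant, at 77.1 ± 3.78 FPKM in CDC, 54.3 ± 4.87 in the clone and 44.0 ± 1.52 in pEpiC. Its CPM were 505, 452 and 460.2 in CDC, 284, 354 and 327 in the clone and 244, 262 and 257 in pEpiC, with both CDC-EpiC and pEpiC below CDC (log2 changes -0.56 ± 0.09 and -0.93 ± 0.07). Unc5a was at 9.74, 10.1 and 10.7 CPM in pEpiC, 3.04, 1.90 and 2.23 in CDC and 1.02, 0.775 and 0.800 in the clone. Unc5c had 0 counts in all 3 clone libraries, which put the clone at least 7.25-fold below CDC and at least 27.3-fold below pEpiC. The 3 Unc5 receptors tested were all lower in the clone than in CDC, against 34.6% of all genes. Neo1, the other abundant netrin receptor, was at 210.1, 185 and 228 CPM in CDC, 202, 242 and 237 in the clone and 291, 311 and 307 in pEpiC. Its log2 change from CDC to pEpiC (0.51 ± 0.08) turned to -0.07 with the length offset and no longer passed, and that from pEpiC to the clone (-0.43 ± 0.07) turned to 0.25. Dcc had too few counts to test.

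Ligand and receptor levels can be set side by side. For the Sema3f, Nrp2 and Plxna4 trio, all 3 genes were above CDC in both CDC-EpiC and pEpiC. The other A plexins did not all share this order. Plxna3 was lower in pEpiC than in CDC (log2 change -1.17), and its clone and CDC libraries overlapped. Plxna1 had a mean CPM of 435 in CDC and 262 in the clone, and its pEpiC and CDC libraries overlapped. Plxna2 was above CDC in the clone and in pEpiC, the latter a difference that the length offset reversed. For the Slit2 and Robo1 pair, both were below CDC and below pEpiC in the clone. Slit3 held 84.6% of the Slit FPKM in CDC and 97.1% in the clone, and did not pass between them. Its mean CPM was 659 in CDC, 613 in the clone and 483 in pEpiC. Netrins Ntn1 and Ntn4 and the receptors Unc5a and Unc5c were likewise lower in the clone than in CDC, while Ntn3 was higher. These groupings were made after the values were seen, and protein or signalling was not measured.

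Other genes of the same pathways were taken from a list of 79 adaptors, co-receptors and cytoskeletal effectors, of which 78 were in the table. In pEpiC against CDC, 35 of 70 tested were higher and 24 lower (84.3% called against 78.3% of all genes), and 28 and 28 with the length offset. Of all genes, 39.8% were higher and 38.5% lower, or 37.2% and 37.6% with the offset. In the clone against CDC, 24 of 68 were higher and 29 lower (77.9% against 68.8%), and 26 and 31 with the offset. Here 34.2% and 34.6% of all genes were higher and lower, or 35.8% and 34.9% with the offset. Against pEpiC 27 of 70 were higher and 36 lower (90.0% against 81.9%), a split that turned to 34 and 31 with the offset. The shares of all genes were 40.3% and 41.5%, or 42.9% and 37.5% with the offset. Dpysl5, a collapsin response mediator of semaphorin signalling, was at 306, 332 and 332 CPM in CDC-EpiC, 17.8, 18.8 and 17.3 in CDC and 5.56, 5.50 and 6.64 in pEpiC, a log2 change of 4.16 ± 0.09 from CDC (adjusted p = 1.6e-14). Mical3, of the oxidases that act downstream of plexins, was at 121, 118 and 118 CPM in the clone and 23.6, 22.2 and 25.1 in CDC. Draxin, a secreted ligand of Dcc, was at 15.6, 17.7 and 15.3 CPM in the clone and 4.47, 3.54 and 4.14 in CDC. In the other direction, Dpysl3 was at 32.5, 38.1 and 37.6 CPM in the clone and 119.7, 101 and 135 in CDC. Fyn, a kinase of several guidance receptors, was at 9.04, 7.56 and 8.67 CPM in the clone and 32.3, 31.9 and 32.8 in CDC. Each of these 5 differed between clone and CDC without overlap. Tiam1, a Rac activator that binds Eph receptors, was at 4.57, 4.42 and 5.02 CPM in the clone and 34.7, 32.0 and 35.7 in CDC. Gpc1, a glypican that binds Slits, was at 1.60, 1.55 and 1.47 and 9.40, 9.11 and 10.8 CPM, again with no overlap for either gene. These genes and Srgap1 were picked from the list after their values were seen. Srgap1, a GTPase activator that binds Robo, was highest in pEpiC at 97.7, 114 and 113 CPM, against 31.1, 30.1 and 36.4 in CDC.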

How the data were processed

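Polyadenylated RNA of CDC, CDC-EpiC and pEpiC was sequenced in paired reads by BGI, with 3 libraries a kind. The authors aligned reads to mm10 with HISAT2 2.0.4 and Bowtie2 2.2.5 and quantified genes with RSEM 1.2.12 (tools and build from the submitters' processing notes, which also name DESeq2 1.4.5). The deposited table holds expected counts, FPKM and TPM per gene and library, as the authors made them. Its 9 mean columns were not used, and 1 symbol was duplicated. Of the deposited expected counts, 30.3% were not whole and were rounded.

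In R 4.3.3, each pair of kinds (6 libraries) was fitted on its own in edgeR 4.0.16: filterByExpr (minimum count 10, minimum total 15), TMM, glmQLFit and glmQLFTest, with Benjamini-Hochberg adjustment over all genes tested and a threshold of 0.05. The guidance genes, the 79 other pathway genes and the 7 marker lists were chosen with earlier results of these data known. The named genes were, per comparison, up to 10 rises and 10 falls of largest size among those past the threshold, without overlap and at 5 CPM or more in the higher kind, plus the member with the highest FPKM of each of the 9 families in each kind. Others were named after their values were seen. Bounds on fold changes divided the mean CPM of the higher kind by the CPM of 3 counts a library, the floor. They leave out counting error and spread between libraries, in the higher kind and at the floor.

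Alternatives were a stricter filter of 10 counts or more in each library, no filter, scaling by RLE or by library size alone, a fit over all 9 libraries, DESeq2 1.42.0, limma 3.58.1 on log2(FPKM + 1), log2(FPKM + 0.1) and log2(TPM + 1), a test against a 1.5-fold change, a loess offset for effective length (span 0.5), a replicate block, and leaving out each library. Scripts were tested on simulated counts. Promoters came from RefSeq (GRCm38.p6, the mm10 build). Tables and figures used Python 3.11.15, pandas 2.3.3, NumPy 2.4.6 and matplotlib 3.10.9. Depth, 22008833 to 22756045 counts, was even across libraries. Libraries of a kind were not duplicates, since the chi-square per degree of freedom between their counts was 4.89 to 23.0. Strand of counting is not given in the sources used here. Protein sequences were not analysed here.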

Additional observations from a re-analysis of the deposited data

How the results depend on the processing

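Of 3058 single-gene results under the alternatives, 2909 (95.1%) were counted as the same, while 89 lost significance, 40 gained it and 20 reversed. Those counted as the same passed in both fits with direction kept, or passed in neither, whatever their sign. Reversed results changed sign and passed in the main fit, the alternative or both. For example, Nrp1 with the offset and Sema4g in the main fit did not pass. From CDC to pEpiC, the length offset reversed Efna5 (-0.24), Ephb4 (-0.12), Nrp1 (-0.0936), Plxna2 (-0.40), Robo1 (-0.37), Sema3a (-0.22), Sema5a (-0.10) and Sema6a (-0.47), and the TPM scale reversed Plxna1 (0.41), Plxnb1 (0.38), Plxnd1 (0.24), Sema4g (0.31), Sema6d (0.23) and Slit3 (0.0338). From pEpiC to CDC-EpiC, the offset reversed Plxna1 (0.12) and Sema3e (0.14), and TPM reversed Ephb4 (-0.13), Sema4b (-0.35), Slit3 (-0.0566) and Unc5b (-0.0625). These values are log2 changes, and the cause was not tested beyond the length trend and the shift of the TPM median given with the comparisons. Against a 1.5-fold change, 22 and 14 guidance genes were higher and lower in pEpiC than in CDC, 15 and 18 in CDC-EpiC than in CDC and 17 and 22 in CDC-EpiC than in pEpiC. The guidance genes tested numbered 59, 55 and 57. Of all genes tested, the same counts were 2801 and 2748 of 13526, 1615 and 2049 of 12976 and 3130 and 3448 of 13547. The same test left 33 of 59 other pathway genes called for pEpiC against CDC and 30 of 53 for CDC-EpiC against CDC. In the main fit, 10593 and 8928 of all genes were called in these comparisons. Leaving out each library in turn gave 29 to 31 higher and 17 to 19 lower guidance genes for pEpiC against CDC, 18 to 21 and 22 to 24 for CDC-EpiC against CDC and 24 to 26 and 26 to 27 for CDC-EpiC against pEpiC, and other pathway genes called numbered 55 to 60, 48 to 53 and 62 to 65. Over all 13703 to 13808 genes tested, these fits called 5092 to 5525 higher and 4981 to 5313 lower for pEpiC against CDC. For CDC-EpiC against CDC they called 3955 to 4509 and 4230 to 4537 of 13115 to 13201. For CDC-EpiC against pEpiC they called 5279 to 5409 and 5481 to 5687 of 13698 to 13792. Calls most often lost were Plxnd1 in CDC-EpiC against CDC (9 settings), Sema6d in pEpiC against CDC (8) and Efnb3 in CDC-EpiC against pEpiC (7). Genes at a floor of 3 counts, such as Ephb1 and Unc5c in CDC-EpiC, have bounds only.

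Pairing of samples by library number was not seen. Deviations of same-numbered libraries from their group means correlated at -0.101 to 0.163, and those of differently numbered libraries at -0.159 to 0.134. With 3 libraries a kind, these values cannot exclude pairing. A replicate block gave 31 and 18, 20 and 23, and 26 and 27 guidance genes higher and lower in the 3 comparisons. Over all genes the block gave 5389 and 5215 of 13526, 4394 and 4437 of 12976 and 5457 and 5639 of 13547.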
